A study of Homo sapiens with 18 samples.

Results

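The regions described here are 547 places in the genome of LNCaP cells where the histone methyltransferase EHMT1 was found by chromatin immunoprecipitation sequencing (ChIP-seq) and where no peak of the study's other lists was found. LNCaP cells are human prostate cancer cells that respond to androgens. The regions were chosen by overlap of peak calls. They are the peaks of the EHMT1 list on chromosomes 1 to 22 and X that shared not even 1 bp with a peak of the 8 other lists. They made up 547 of the 1626 EHMT1 peaks on these chromosomes (33.6%), of 1748 EHMT1 peaks on all chromosomes and of 22458 peaks in all 9 lists. They are called EHMT1-only peaks below, which says in which list they were called and not that the other proteins or marks were absent.

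The EHMT1 list came from parental LNCaP cells, for which the labels name no treatment, and an antibody to the endogenous protein. The other lists came from 4 stable lines in which a lentiviral, tetracycline-inducible construct expressed V5-tagged EHMT1 as wild type (WT) or with arginine in place of the first, the second or both of a pair of adjacent lysines (K450R, K451R and K450RK451R). All 4 lines received 0.5 µg/ml doxycycline for 2 days. Chromatin of each line was precipitated with an antibody to V5 and with one to histone H3 dimethylated at lysine 9 (H3K9me2), the mark that EHMT1 and its partner EHMT2 deposit. A group comprised 2 replicates but a single deposited list, so no spread between replicates could be given and no test between groups was made. Shares carry 95% Wilson intervals, which cover counting error only.

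EHMT1 reads and writes methylated lysine 9 of histone H3 as a dimer with EHMT2, and works in complexes with factors that recognise DNA sequence. One such factor is REST, also called NRSF, a zinc finger repressor that silences genes of neurons and neuroendocrine cells in other tissues, and that carries co-repressors and H3K9 methyltransferases with it. REST recognises the RE1 element, which has a left arm and a right arm that touch different parts of the protein. REST also binds elements whose arms lie farther apart. In prostate cancer, loss of REST activity is known for its link to neuroendocrine genes.

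The RE1 string searched here was the left arm TTCAGCACC, 2 bases of any kind and the right arm GGACAGCGC, on both strands, with at most 3 mismatches in the 18 letters compared. The window ran 100 bp to each side of the summit, the base of highest pileup in a peak. Both arms were also searched alone with at most 1 mismatch in 9 letters. These searches overlap, since an RE1 string with so few mismatches always holds at least 1 arm. The 5 sequences that follow, from peaks described further on, show how the RE1 string varied. They run 5′ to 3′ in the direction of the RE1 string on hg19, with the compared arms in capitals and 10 bases to each side.

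CELF4 internal start, chr18:34850176-34850215, minus strand: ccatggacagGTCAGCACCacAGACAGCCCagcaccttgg
KCNA3, chr1:111289470-111289509, minus strand: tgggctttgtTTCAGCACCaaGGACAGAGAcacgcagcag
HCN4 intron, chr15:73639234-73639273, plus strand: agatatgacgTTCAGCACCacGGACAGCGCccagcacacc
CRHR2 intron, chr7:30711626-30711665, plus strand: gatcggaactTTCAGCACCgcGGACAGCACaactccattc
SST promoter, chr3:187387594-187387633, plus strand: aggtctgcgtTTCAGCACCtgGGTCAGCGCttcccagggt

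The string had 3 mismatches in CELF4, 2 in KCNA3, 0 in HCN4 and 1 each in CRHR2 and SST. To show where such a string lay within a peak, the whole window of the HCN4 peak, chr15:73639177-73639377 on the plus strand, is given with the arms in capitals.

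HCN4 window: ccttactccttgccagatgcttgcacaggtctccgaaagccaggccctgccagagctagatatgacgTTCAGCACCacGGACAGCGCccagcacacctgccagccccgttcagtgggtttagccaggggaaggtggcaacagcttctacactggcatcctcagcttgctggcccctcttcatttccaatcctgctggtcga

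An RE1 string was present in 316 of the 547 EHMT1-only windows (57.8%, interval 53.6 to 61.8%). It was in 0 of 1089 windows of the same length placed 1 kb to each side of the summits, leaving out 5 with undetermined bases, and in 2795 of 14107527 windows tiled over the genome (0.0198%). A count of 0 in 1089 windows still allows a share of up to 0.275%. The string was in 26.1% of the 199 EHMT1 peaks that overlapped a V5 peak and no H3K9me2 peak (20.5 to 32.6%). Of the 880 EHMT1 peaks that overlapped an H3K9me2 peak, 1 held it (0.114%). The share in EHMT1-only windows therefore lay above both intervals of the other EHMT1 peaks. The other EHMT1 peaks lay in repeated sequence more often, above all those shared with H3K9me2. All 51-base stretches of the window were found once in the genome in 12.3% of the latter, against 87.4% of EHMT1-only peaks. For peaks shared with V5 but not H3K9me2 it was 51.3%. A CENP-B-type string was in 18.6% of peaks shared with H3K9me2 and a GGAAT satellite-type string in 15.5%, against 1.28% and 0.731% of EHMT1-only peaks. Among peaks shared with V5 but not H3K9me2 these strings were in 3.52% and 7.04%. The part of repeated sequence in the RE1 shares was not tested. RE1 was not used to choose the peaks, but it was known to be frequent in the EHMT1 list when they were chosen.

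The match was mostly imperfect. Among the EHMT1-only windows, 10 held the string with 0 mismatches, 74 with 1, 110 with 2 and 122 with 3, and a further 59 held one with 4. Agreement at the searched letters was partly set by the search, which allowed at most 3 mismatches. Within that limit, some letters hardly varied across the 316 strings. The A at positions 4, 7 and 16 and the C at position 8, counted from 1 at the first letter of the left arm, were present in 100% of them. The right end varied most. Position 19 was G in 47.8% and T in 33.2%, and position 1 was T in 69%. Just past the searched letters, position 21 was C in 70.9%. The 2 bases between the arms were not fixed by the search, and the first was A in 60.8% and the second T in 45.9%.

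The strings lay at the summits. The centre of the string was a median of 14.5 bases from the summit, within 25 bases in 237 of the 316 windows (75%) and within 50 bases in 305 (96.5%). It lay on the strand of the nearest protein-coding gene in 154 of them (48.7%), and on the other strand in the rest.

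**Figure D1:**
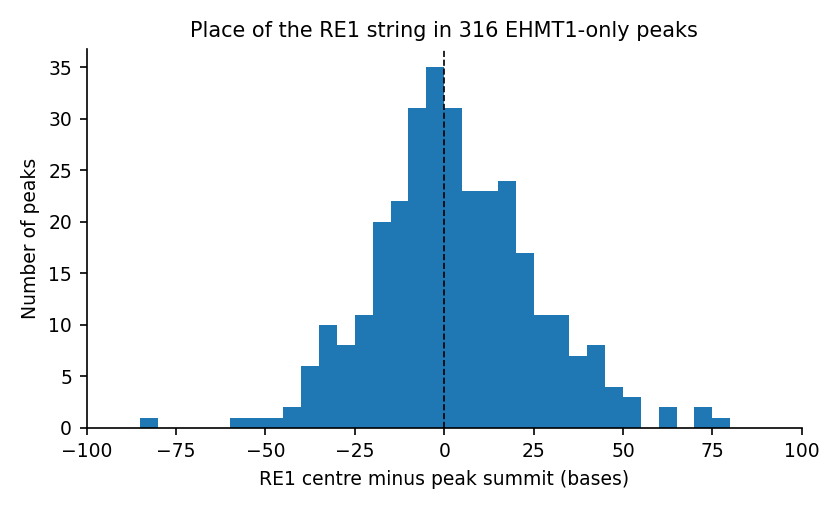
Number of EHMT1-only peaks (vertical axis) by the distance in bases of the RE1 string's centre from the peak summit (horizontal axis, bins of 5 bases, dashed line at the summit) for the 316 peaks with the string. The strings gather around the summit, with 305 of 316 within 50 bases of it.

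Seen from the genome, the string was found 3125 times on chromosomes 1 to 22 and X, and 320 of these places (10.2%) lay in an EHMT1-only peak. For strings with 0 mismatches it was 9 of 24 (37.5%), and with 1 mismatch 74 of 187 (39.6%). With 2 mismatches it was 112 of 569 (19.7%), and with 3 it was 125 of 2345 (5.33%). Any EHMT1 peak held 402 of the 3125 places (12.9%), and a peak of the K450RK451R V5 list, the longest of the V5 lists, held 92 (2.94%). The share of places inside an EHMT1-only peak was thus smaller at 2 and 3 mismatches than at 0 or 1.

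A second arrangement of the same arms appeared among the 231 EHMT1-only windows without an RE1 string. In 39 of them (16.9%, 12.6 to 22.2%) a left arm was followed on the same strand by a right arm 7 to 10 bases on, with a gap of 7 bases in 6 windows, 8 in 18, 9 in 11 and 10 in 4. This is called the wide pair. The range of 7 to 10 bases was set after the gaps had been counted, so the 39 windows are a description. None of the 1094 side windows, the 5 included, held the pair. The reverse order, right arm first, was seen within 30 bases in 2 of the 231 windows, and arms on opposite strands in 7. Most of the wide pairs differed from the searched right arm at the same letter, with T at its position 8 in 59% and G in 28.2%. The 3 sequences that follow are those of highest significance without an RE1 string that held the pair, with the arms in capitals.

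RPS29, chr14:49770834-49770879, minus strand: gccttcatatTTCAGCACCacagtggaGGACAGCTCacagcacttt
NLK, chr17:26335691-26335736, plus strand: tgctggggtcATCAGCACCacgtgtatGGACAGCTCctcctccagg
BHLHE23, chr20:61713798-61713843, plus strand: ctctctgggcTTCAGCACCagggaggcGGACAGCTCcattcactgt

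All 3 lay far from the start of the gene that names them, RPS29 at 282 kb, NLK at 34 kb and BHLHE23 at 75.4 kb. Each had 8 bases between the arms. A wide pair also lay at the promoter of PCSK1, the convertase that cuts prohormones in secretory granules, with a gap of 7 bases.

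PCSK1 promoter, chr5:95770005-95770049, plus strand: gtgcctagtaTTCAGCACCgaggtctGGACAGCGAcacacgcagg

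Together, 355 of the 547 windows (64.9%, 60.8 to 68.8%) held an RE1 string or a wide pair. Of the others, 86 held 1 or both arms in some other way and 106 held neither arm. In these 106 windows, the string ACCATGGA, which runs across the centre of the RE1 element, was in 17% against 0.914% of the side windows. ATGGACAG, the centre and start of the right arm, was in 15.1% against 0.914%. The other 6 of the 8 strings most in excess of the side windows were not parts of the element. The commonest of them, TCTCAGAA, was in 17.9% against 4.2%. Of the 106 windows, 11 had no 51-base stretch found once in the genome, against 3 of the 316 with an RE1 string. The part of repeated sequence in these 6 strings was not tested. The window of highest significance with neither arm belonged to the CADM3 peak and is given as hg19 has it, chr1:159147173-159147373 on the plus strand. It has no capitals because no arm was found, but it does hold ACCATGGA on the minus strand.

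CADM3 window: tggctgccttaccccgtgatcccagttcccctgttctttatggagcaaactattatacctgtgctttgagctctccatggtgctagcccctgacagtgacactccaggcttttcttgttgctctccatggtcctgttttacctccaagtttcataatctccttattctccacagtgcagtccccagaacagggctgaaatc

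**Figure D2:**
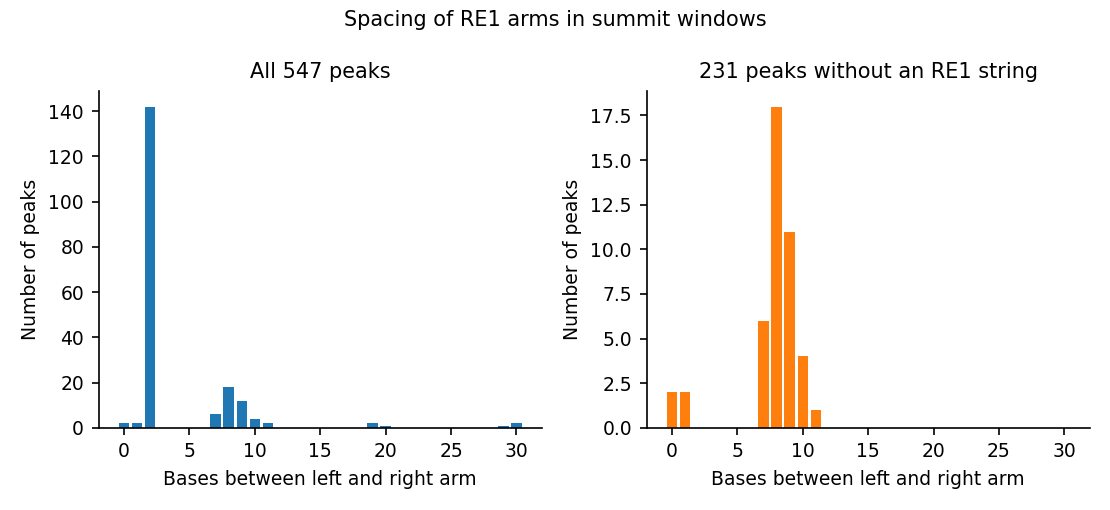
Number of EHMT1-only peaks (vertical axis) by the number of bases between a left arm and a right arm that follows it on the same strand (horizontal axis), in all 547 peaks (left) and in the 231 without an RE1 string (right). The gap of 2 bases dominates on the left, and on the right the gaps gather at 7 to 10 bases, with 18 peaks at 8.

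Other strings were rare. The AP-1-type string TGANTCA was in 44 EHMT1-only windows (8.04%, 6.05 to 10.6%), beside 5.05% of the side windows and 6.3% of genome windows. The CTCF-type string AGGGGGCGC with at most 1 mismatch was in 3.66%, beside 3.03% of side windows. The androgen receptor-type string (AGAACA, 3 bases and TGTTCT) with at most 2 mismatches was in 1.46% and 1.56%, and the FOXA-type string TGTTTAC in 1.83% and 2.57%. The E2F-type strings (TTTCCCGC, TTTGGCGC, TTTCGCGC or TTTGCCGC) were in 1.1% and 0.459%, and the MYC-type string CACGTG in 2.74% and 0.918%. The MEF2-type string CTAAAAATA was in 0.548% beside 3.67% of side windows. Of genome windows, 1.84% held the MYC-type string, which is within its EHMT1-only interval of 1.67 to 4.47%. An E2F-type string was in 0.232% of genome windows and the MEF2-type string in 3.85%. Each of these strings was in at most 44 of the 547 EHMT1-only windows, against 316 for the RE1 string.

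The EHMT1-only peaks were of moderate strength. Fold enrichment divides the summit pileup by the local background after the same constant is added to both. For these peaks it ran from 1.85 to 18.3 with a median of 7.39. Their −log10 q ran from 2.03 to 48.7 with a median of 8.75. The pileup at the summit was 8 to 97 reads with a median of 16, and the width 100 to 322 bp with a median of 135 bp. EHMT1 peaks shared with V5 but not H3K9me2 had medians of 23 reads, a fold of 7.02 and a −log10 q of 10.9, and those shared with H3K9me2 had 49 reads, 6.49 and 17.5. The EHMT1-only peaks were thus lower in median reads and −log10 q. Their median fold was not lower, but their upper quartile of 8.87 lay below the 9.76 and 9.14 of the other peaks.

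Peaks with the RE1 string stood higher than those without. The median fold was 7.94 in the 316 with the string, from 4.51 to 18.3, and 7.52 in the 39 with a wide pair. It was 6.98 in the 86 with other arms and 6.25 in the 106 with none. The ranges overlapped widely. Ranked by −log10 q in 4 parts of nearly equal size, the RE1 share was 39.4% in the lowest part, 59.1% and 62.5% in the middle parts and 70.1% in the highest, whose interval of 61.9 to 77.1% did not meet the 31.6 to 47.8% of the lowest. Of the 30 peaks with a fold under 5, 3 held the string. Of 30 peaks whose window was mostly made of 51-base stretches found more than once in the genome, the length of a read, 7 held it.

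**Figure D3:**
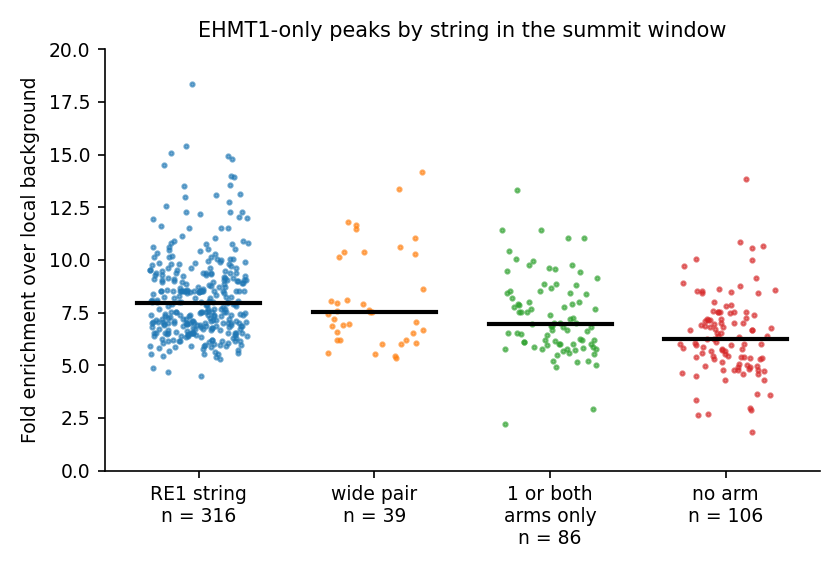
Fold enrichment over local background (vertical axis, linear) of each EHMT1-only peak, grouped by what its summit window held. Points are peaks and black lines are medians, which are 7.94 with an RE1 string, 7.52 with a wide pair, 6.98 with 1 or both arms only and 6.25 with no arm.

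The peaks named here follow their rank by −log10 q. The highest lay in CELF4, an RNA-binding protein of neurons, 0.686 kb past an internal transcript start and 296 kb from the gene's outermost start, with a fold of 18.3, a −log10 q of 48.7 and 50 reads at the summit. It was followed by a peak in an intron of XKR6, of the XK-related family, with a fold of 15.4. A peak 71.9 kb upstream of KCNA3, a voltage-gated potassium channel, had a fold of 15.1. Only CELF4 stood clearly apart, and each of the 7 peaks that followed these 3 had a fold between 13.9 and 14.9.

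Several of those 7 lay in introns of channel and receptor genes. HCN4, the pacemaker channel of the heart, had a fold of 14.5 with the summit 22 kb past a start. SCN10A, a sodium channel of sensory neurons, had 14.9 at 10.2 kb. CRHR2, a receptor for peptides of the corticotropin-releasing family, had 14 at 10.4 kb. Of the 10 peaks of highest rank, 8 held an RE1 string, the RPS29 peak held a wide pair and the CADM3 peak held neither. CADM3 is an adhesion molecule of neurons, and its peak lay 5.72 kb past a start in sequence that introns of AIM2, a sensor of cytosolic DNA, also cover.

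Most EHMT1-only peaks were away from promoters. A promoter summit, at most 1 kb from where a protein-coding transcript starts, was found for 53 of 547 (9.69%, 7.48 to 12.5%), whereas 2.54% of genome bases lie in such regions. Introns held 182 (33.3%, beside 40.6% of bases) and sequence outside genes 208 (38%, beside 37.5%). Genes of long non-coding RNAs held 75 (13.7%), coding exons 10 (1.83%) and untranslated regions 7 (1.28%). The distances to the nearest protein-coding start had a median of 34 kb. Among EHMT1 peaks shared with V5 but not H3K9me2, 21.6% (16.5 to 27.8%) were at promoters, with a median distance of 22.7 kb. Among those shared with H3K9me2 it was 1.14% and 302 kb, and 82.7% lay outside genes. The EHMT1-only peaks stood between these, with a promoter interval that met neither. The part that repeated sequence among the other EHMT1 peaks, of both kinds, had in these positions was not tested. A gene can have several starts, and 39 of the 53 promoter summits were within 1 kb of the outermost start of a gene, while the other 14 lay at internal starts.

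**Figure D4:**
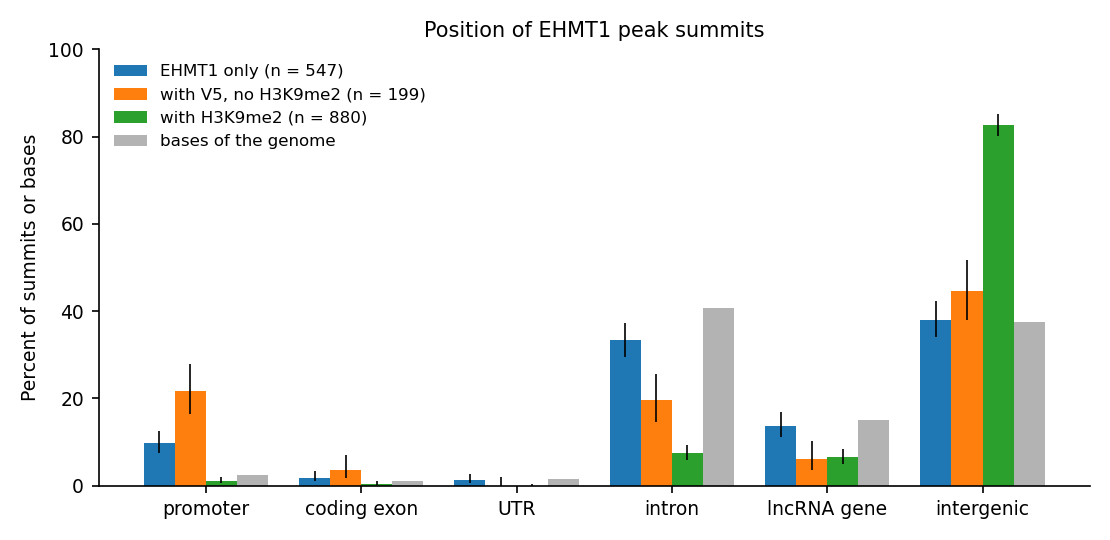
Percent of summits (coloured bars, with 95% Wilson intervals as black lines) or of genome bases (grey bars) by class of position, for EHMT1-only peaks and the other EHMT1 peaks. Other exons of coding genes and other non-coding genes or pseudogenes are not drawn. Of the EHMT1-only summits, 9.69% lay at promoters, against 2.54% of genome bases, and 38% outside genes.

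The RE1 string was not tied to promoters. It was in 28 of the 53 promoter windows (52.8%, 39.7 to 65.6%) and in 288 of the 494 others (58.3%, 53.9 to 62.6%). Introns had the string in 125 of 182 (68.7%, 61.6 to 75%) and sequence outside genes in 105 of 208 (50.5%, 43.7 to 57.2%). Of the promoter summits, 33 lay downstream of the start and 20 upstream. The base composition moved with position, with a median of 58.2% G or C in promoter windows and 48.8% outside genes, and its part in the shares was not tested.

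The promoter peaks of highest rank lay at genes of neurons and secretory cells and at a few others, and those of CELF4, ADGRB3, CDH23 and SLC12A1 lay 12.6 to 598 kb from the outermost start. After CELF4 came SLC6A5, the glycine transporter of inhibitory neurons, with a fold of 12.3 at 0.315 kb past its start, and SYT4, a synaptotagmin of secretory vesicles, with 10.9 at 0.037 kb. ADGRB3, an adhesion receptor of synapses, had 11.8, and PCSK1 had 11.1. CDH23, a cadherin of hair cells, had 10.8 and held no arm pair. SLC12A1, the salt transporter of the kidney, had 9.96, at a summit that also lay in the body of CTXN2. TRPC7, a cation channel, had 9.79, CYB5R4, a reductase, 9.59 and SST, the hormone somatostatin, 8.98. Of these 10 promoters, 6 held an RE1 string, ADGRB3 and PCSK1 held a wide pair, and CDH23 and CYB5R4 held neither.

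Genes were linked to a peak when its summit was no more than 10 kb from a start of one of their protein-coding transcripts. This held for 176 of 19748 protein-coding genes (0.891%), and 4 of them had at least 2 peaks. A summit lay in the body of 233 genes (1.18%). With only the outermost start of each gene, a choice made after the values were seen, 134 genes were linked (0.679%). The other EHMT1 peaks were within 10 kb of a start of 118 genes (0.598%). The lists below were written with results of these data known, so their shares are set beside 0.891% as a description.

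Genes of neuroendocrine secretion were linked in 5 of 24 cases (20.8%, 9.24 to 40.5%). The 5 were CHGA, CADPS, DDC, PCSK1 and SST. CHGA encodes chromogranin A, the granule protein used as a marker of neuroendocrine tumours. It had 2 peaks, the stronger with a fold of 9.29 and 20 reads, 8.89 kb from its start. The other had a fold of 7.46 and lay at the promoter, 0.437 kb past a start. Its window held an RE1 string with 0 mismatches, centred 80.5 bases from the summit. CADPS, which primes dense-core vesicles for release, had a fold of 8.41 at 7.09 kb. DDC, the enzyme that makes dopamine and serotonin from their precursors, had 5.45 at 7.84 kb. CADPS and DDC held no RE1 string and no wide pair, and their nearest starts were internal, so that 3 of 24 were linked by outermost starts. The other EHMT1 peaks linked 3 of the 24.

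Neuronal RNA-binding proteins and transcription factors were linked in 9 of 38 (23.7%, 13 to 39.2%). Besides CELF4, the highest were POU4F3, a POU factor of sensory cells, with a fold of 11.2, NEUROD4, a basic helix-loop-helix factor, with 9.13 at 0.018 kb, and LHX5, a LIM homeobox factor, with 8.57. The others were POU4F2, RBFOX3, MYT1L, ELAVL2 and NPAS4. NEUROD4, MYT1L and ELAVL2 had no RE1 string and no wide pair within their windows, the latter 2 with folds of 7.02 and 6.67. By outermost starts 7 of 38 were linked, without CELF4 and RBFOX3, and the other EHMT1 peaks linked 4. A summit in the gene body without a near start was found in CELF5 and in SRRM4, the splicing factor that makes a neuronal form of REST, with a fold of 8.02 at 79.9 kb from its start.

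Synaptic vesicle genes had a start nearby in 3 of 36 (8.33%, 2.87 to 21.8%), which were SYT4, SLC18A3 and RIMS2, but a summit in the body in 6 of 36 (16.7%). Among the latter SYT2, a calcium sensor of vesicle release, had a fold of 12.2 at 17.3 kb from its start, and SV2C, a vesicle glycoprotein, 11.1 at 20.8 kb. SLC18A3, which loads acetylcholine into vesicles, had 8.22 at 3.19 kb. RIMS2 held no RE1 string and no wide pair. The other EHMT1 peaks linked 4 of the 36, and so no fewer than the EHMT1-only peaks did. Genes of the neuronal cytoskeleton and of axon growth were linked in 3 of 30 (10%, 3.46 to 25.6%). These were INA, an intermediate filament, with 6.44, L1CAM, an adhesion molecule of axons, with 7.02, and GDAP1 with 6.22, which held no RE1 string and no wide pair. Only INA was linked by its outermost start, and the other EHMT1 peaks linked 1 of the 30.

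The RE1 strings of 6 of these genes are given with 5 bases to each side, to show the matches at these peaks, whose folds ran from 6.44 to 12.2. For CHGA the string is that of the stronger peak, not of the promoter peak.

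CHGA, chr14:93380583-93380612, plus strand: ggtagTTCAGGACCacGGACAGCAGcctgc
SYT2, chr1:202662268-202662297, minus strand: ggaggTTCAGCACCatGGACAGAGCtcagt
SYT4, chr18:40857254-40857283, minus strand: ttcccTTCAGCACCtcGGACAGAACacgca
L1CAM, chrX:153140953-153140982, minus strand: gcgatTTCAGCACCagGGACAGCGAacctg
INA, chr10:105038761-105038790, minus strand: tcgagATCAGCACCgtGGACAGCGCcccga
POU4F3, chr5:145720248-145720277, minus strand: caaatTTCAGCACCacGGACAGCACaagta

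Voltage-gated sodium, calcium and potassium channel genes were linked in 10 of 133 (7.52%, 4.14 to 13.3%), and 13 of 133 had a summit in the body (9.77%). Of those near a start, KCNH7, of the ether-a-go-go potassium channels, was highest with a fold of 13.1 at 2.06 kb. Its relative KCNH2, which repolarises the heart, had 9.73. KCNIP1, a partner of potassium channels, had 8.1 at 0.396 kb, and CACNA1B, the N-type calcium channel of nerve endings, 6.94 at 6.82 kb. By outermost starts 8 of 133 were linked, without KCNIP1, and the other EHMT1 peaks linked 1. Transmitter receptor genes were linked in 4 of 103 (3.88%, 1.52 to 9.56%). Among them were GRM8, DRD3 and GRIN3A with folds of 8.74, 7.84 and 5.95, each with an RE1 string, and DRD3 had its peak at an internal start. By outermost starts 1 of 103 was linked, GRIN3A, and the other EHMT1 peaks linked 8 of the 103. Homeobox genes were linked in 4 of 110 (3.64%, 1.42 to 8.98%), all 4 by outermost starts, and in 1 by the other EHMT1 peaks. The 4 were PAX5, LHX5, POU4F2 and POU4F3, and all but PAX5 are also counted, by the same peaks, among the neuronal factors above.

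Other lists had few or no such genes. None of 25 genes of the REST complex and the H3K9 methyltransferases was linked, and none of 36 E2F targets of the cell cycle, 65 protocadherins, 80 ribosomal protein genes, 509 zinc finger genes with ZNF symbols or 6 genes that the study discusses as targets of the mutant. Of 25 androgen receptor targets and luminal prostate genes, 1 was linked. It was TRPM8, a cold-sensing channel, with a fold of 8.21 at 4.36 kb and an RE1 string. Olfactory receptor genes were linked in 3 of 381 (0.787%, 0.268 to 2.29%), close to the share of all genes. The short lists leave wide intervals, up to 13.3% for the 25 genes of the REST complex and 39% for the 6 genes that the study discusses. Of the lists in this paragraph, only the zinc finger genes had an interval, up to 0.749%, that ended below the 0.891% of all genes. For the others a count of 0 cannot be told from that share.

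**Figure D5:**
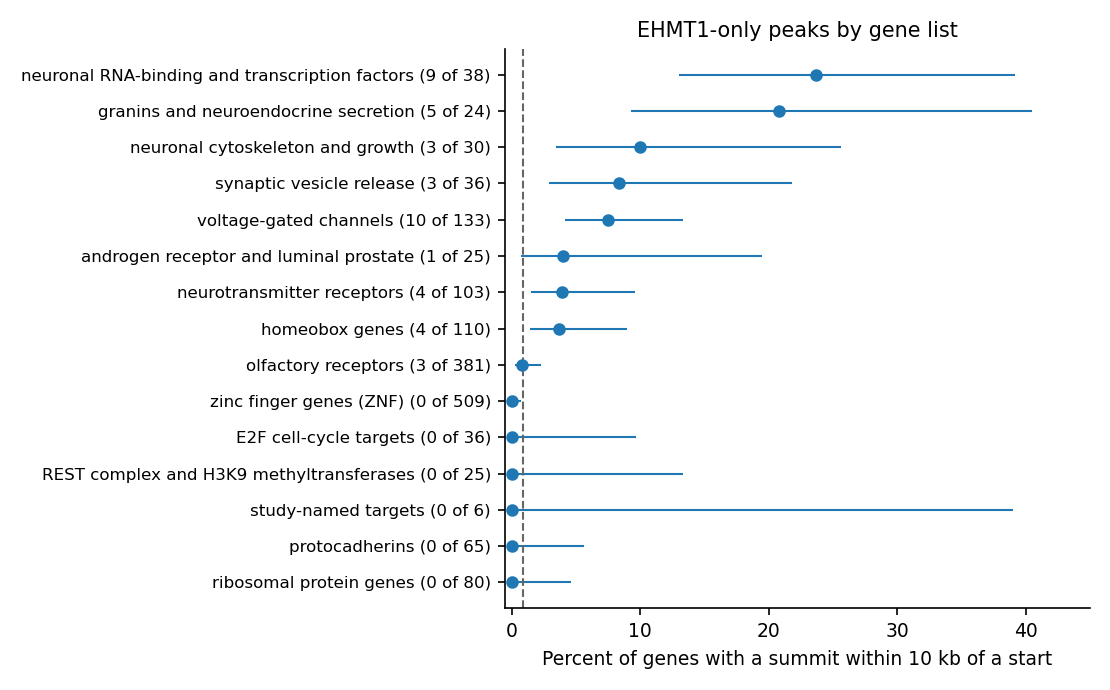
Percent of the genes in each list with an EHMT1-only summit within 10 kb of a start (horizontal axis), with 95% Wilson intervals as lines and counts in brackets. The dashed line marks the 0.891% of all protein-coding genes. Neuronal factors (23.7%) and neuroendocrine secretion (20.8%) lie farthest to the right.

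The EHMT1-only peaks were spread over the genome. Chromosome 19, rich in genes, had 57.3 per 100 Mb, chromosome 20 had 38.7 and chromosome X had 2.65, beside 19.3 over all. Few lay next to each other. The pairs within 10 kb numbered 9, among them 2 summits 9.36 kb apart at CHGA and 5.77 kb apart at SKOR2.

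Most were also far from any peak of another list, although the rule asked only for no shared base. No other list had a peak within 10 kb of 463 of the 547 (84.6%, 81.4 to 87.4%), and 32 (5.85%) had one within 1 kb. At the edge of the rule, the SHOX2 peak lay 12 bases from a K450RK451R V5 peak and the MARCHF11 peak 23 bases, and both were kept. The OPRM1 and CACNA1C peaks shared 13 and 14 bases with such a peak and were left out.

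The lists differ in reach. The genome-wide background recovered from the deposited values was 0.994 reads per position for the EHMT1 list, and 0.327 for the V5 list of the WT line, 0.411 for K450R, 0.523 for K451R and 0.84 for K450RK451R. For the H3K9me2 lists it was 0.325 to 1.02. The lowest pileup called was 8 reads in the EHMT1 list and 6 to 8 in the others, and the median EHMT1-only summit had 16. The part of depth in the absence of these sites from the other lists was not tested. The antibody, the cell line, the doxycycline as labelled, the depth and the sites themselves differ together between the EHMT1 list and the V5 lists and cannot be told apart.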

How the data were processed

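ChIP-seq peak lists of 18 samples in 9 groups of LNCaP cells were used. Per the study's methods and the submitters' processing notes, single-end reads of 51 nt were mapped to hg19, and FastQC 0.11.9, BWA 0.7.9a, SAMtools 1.2 and MACS2 2.1.0 are named. The parameters of peak calling, and whether replicates were pooled, are not given in the sources used here. For each peak the authors deposited a fold enrichment, a −log10 p and a −log10 q, and the offset of the summit. The fold is the ratio of pileup to local background, with the same constant added to both. There was no normalization between lists. A low cutoff for q and deep reads both lengthen a list.

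Pileup and background were solved from fold and −log10 p as whole reads and a Poisson tail. All peaks were solved within 0.01 on the −log10 p scale. The genome-wide background of a list was the lowest value among summits with at least 10 reads. Intervals cover counting error only, and neighbouring peaks are not independent.

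Starts, exons and introns were those of GENCODE release 44, lifted to this build. A summit was assigned first to promoters (within 1 kb), then to coding exons, untranslated regions, other exons, introns, long non-coding RNA genes and other genes. Strings were searched on both strands in windows of 100 bp to each side of the summit, in side windows 1 kb away and in windows tiled over the genome. The NRF1-, SP-, CRE-, NFY-, ETS-, YY1-, telomere-, satellite- and CENP-B-type strings were also searched and each was in at most 8 of 547 windows. The overlap and string searches were tested on simulated data.

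The named peaks were the 10 of highest −log10 q, the 10 highest at promoters, the 5 highest without an RE1 string, and up to 4 genes per list. Other genes named were chosen after their values were seen. Some items are not reported here. Sequences were left out for 1 chromosome and for untranslated regions beyond 30 bases. The peaks and lists were chosen with earlier results of these data known. No test was made. Alternatives changed the overlap rule, the cutoffs, the window, the mismatches and the distances. Python 3.11.15, numpy 2.4.6, pandas 2.3.3, scipy 1.17.1, numba 0.67.0, pysam 0.24.0, samtools 1.23.1 and matplotlib 3.10.9 were used.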

Additional observations from a re-analysis of the deposited data

How the results depend on the processing

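The number of EHMT1-only peaks, the promoter share, the RE1 share and the number of linked genes were recomputed under 19 other settings, each applied to the results it bears on, which gave 47 values. In 33 of them the shares stayed within the main interval and the counts within 1.5 times. With −log10 q at 10 or above, 220 peaks were left, with an RE1 share of 67.7% and 72 linked genes. With −log10 q at 5 or above the RE1 share was 62.3%. Against the 4 V5 lists only it was 52.6%, and without the K450RK451R V5 list it was 51.7% and the promoter share 12.7%. The RE1 share was 35.5% with at most 2 mismatches, 68.6% with at most 4 and 53% in a window of 50 bp to each side. The promoter share was 15.4% within 2500 bp and 17% with the starts of all genes. With only the outermost coding start of each gene, an alternative chosen after seeing the data, it was 7.13%. Within 50 kb of a start there were 504 linked genes. These alternatives change the peaks, letters or distances counted. No paired analysis was possible because the replicates of a group share 1 list. For the same reason no replicate could be left out.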
